A study of Andropogon gerardi with 36 samples.

Results

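Plots 11 and 12 are one of the 6 pairs of prairie plots in which big bluestem (Andropogon gerardi), a perennial C4 grass, was compared on 2-colour spotted arrays made for maize. All arrays whose channels held these plots by their titles were taken, 4 of the 36 in the series. Each array set RNA of plot 11, in the Cy5 channel, against RNA of plot 12, in the Cy3 channel. The plants grew under rainout shelters at Konza Prairie in 2005, in an experiment that combined warming with changed soil moisture. Of these 4 arrays, 2 held June samples and 2 held August samples. In each month 1 array joined the plant codes 111c and 121c (subplot 1 of either plot), and the other joined 112d and 122c (subplot 2). The same plant codes therefore returned in August. The sources used here do not give the meaning of the letter, the soil moisture of either plot, the warmed subplot, the tissue or the age of the plants. Nor do they say whether the RNA of 1 channel came from 1 plant or a pool, so the p-values below measure the spread between these arrays.

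Each value was the ratio of the 2 channels at 1 probe, deposited as log10 and given here as log2. A value of 0 is an equal signal in both plots, and a value of 1 or -1 is a doubling one way or the other. Whether Cy5 was divided by Cy3 or Cy3 by Cy5 is not given by the labels or the file, so a sign compares arrays and does not say which plot was higher. Because plot 11 was in Cy5 on 4 of 4 arrays, a plot difference and a dye effect cannot be told apart in the mean of the arrays. A dye effect that is the same on every array drops out of the change from June to August, of the difference between subplots and of the comparison with the other pairs.

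Several named genes on the array have well described roles. Proteins of the hsp70 family are chaperones that bind unfolded protein with the use of ATP, and many are made in larger amounts by heated plants. MNB1b is a maize DNA-binding protein of the high mobility group box type, found in chromatin. TCTP, the translationally controlled tumor protein, takes part in growth control in plants and animals. Sod4A is a cytosolic copper/zinc superoxide dismutase, which removes superoxide. RPL27A is a protein of the large ribosomal subunit, mbd genes encode proteins with a methyl-CpG-binding domain, and tubulin forms microtubules. Most other symbols are locus numbers for which the annotation used here states no role. Only 1800 of the 19200 probes carried exactly 1 symbol.

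The June arrays of plots 11 and 12 measured far fewer probes than the August arrays. A value was present for 2199 probes on the June subplot 1 array and for 2516 on the June subplot 2 array. In August there were values for 7389 probes in subplot 1 and for 8210 in subplot 2. Both June counts lay below those of the 9 other June arrays, which held at least 2700 values. The mean was 2357.5 in June against 4668.9 on the other June arrays (exact two-sided permutation test, p = 0.0909). In August it was 7799.5 against 7623.2 (exact p = 0.891), and over both months 5078.5 ± 3162 (SD, n = 4) against 5578 ± 1905 (SD, n = 30; permutation p = 0.657, adjusted p = 0.850 over 2 measures). With 2 arrays against 9, the smallest p that the exact test within a month allows is 0.0182.

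The spread of the log2 ratios, as a scaled median absolute deviation, was 0.79 and 0.38 on the June subplot 1 and subplot 2 arrays, and 0.58 and 0.47 on the August arrays in the same order. It was thus widest and narrowest on the 2 June arrays. Its mean of 0.557 did not differ by the test from the 0.568 of the other 30 arrays (permutation p = 0.850). Array medians ran from -0.04 to 0.12. The share of values beyond a doubling was 20.6% and 11.3% in June and 10.2% and 6.98% in August. On the June subplot 2 array such values were mostly negative, 229 against 56 positive ones.

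**Figure D1:**
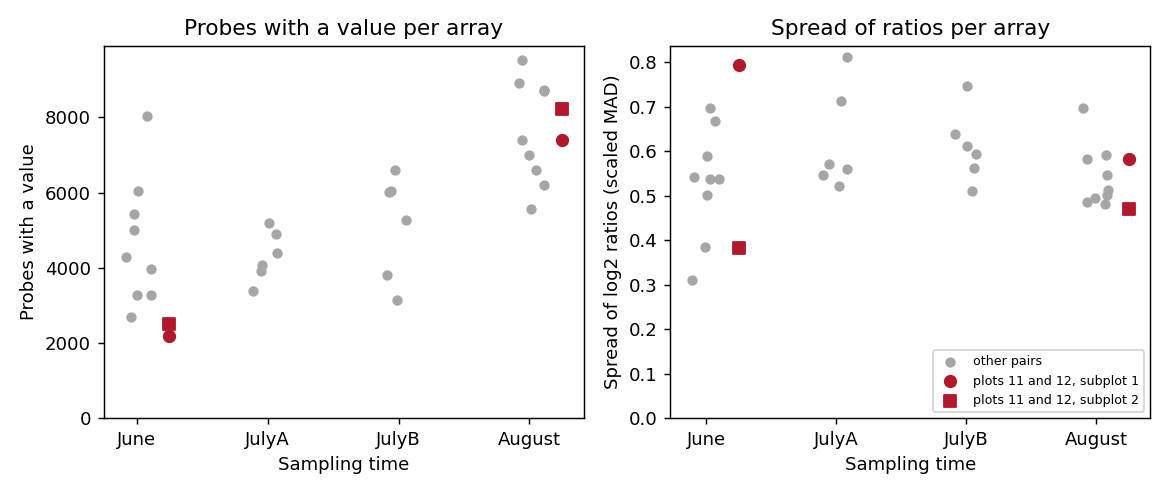
Number of probes with a value (left) and spread of the log2 ratios as a scaled median absolute deviation (right) for the 34 arrays with a plot pair and values, by sampling time (JulyA and JulyB are the labels of 2 July samplings). The 2 June arrays of plots 11 and 12 hold 2199 and 2516 values, fewer than any other array shown, and their spreads are 0.79 and 0.38.

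Few probes were seen throughout. Of 10595 probes measured on any of the 4 arrays, 4105 had a value on 1 array, 3939 on 2, 1873 on 3 and 678 on all 4. The 678 probes are the base of the tests below unless stated otherwise, and 171 of them carried a symbol, for 45 genes. Both August arrays measured 5610 probes, and both June arrays 766. A total of 3137 probes had values on both August arrays and on neither June array, 41 of them MNB1b probes, while only 10 probes had the opposite pattern. The deposited table does not say why a probe has no value, so an absent value gives no level.

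Array-wide patterns were only weakly shared among the 4 arrays. Pearson correlations across the probes measured on both arrays were above 0 for 6 of 6 array pairs but ran from 0.0084 to 0.228 (median 0.0852). With arrays of the other plot pairs they ran from -0.417 to 0.462, and 78 of 120 were above 0. Over the 678 probes on all 4 arrays the correlations within the pair ran from 0.055 to 0.252. For the 2 August arrays the value was 0.0084 over the probes on both and 0.154 over these 678. The June and August arrays of the same plant codes deviated from their month means with a correlation of -0.028. These correlations are across probes, which are not independent replicates.

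The mean of the 4 arrays addresses whether plots 11 and 12 differed in transcript level throughout. No probe passed the test: 0 of 678 (0%) had a Benjamini-Hochberg adjusted p under 0.05 in limma's moderated test, the smallest adjusted p was 0.107, and 80 had an unadjusted p under 0.05. The median over the 678 probes was -0.07. On all 4 arrays 60 probes were above 0 and 65 below 0. Only probe 7092, without a symbol, was beyond a doubling on each array, and it changed sign (-1.69, -1.08, 1.37 and -1.63). Over the 2551 probes with at least 3 of 4 arrays, 3 passed (0.118%), all negative and without a symbol, 2 of them with a single June array. In the fit to all 34 arrays as deposited, where the pairs share 1 estimate of the spread, 56 probes passed (13 above and 43 below). With ratios turned to the lower-numbered plot and a dye term, the fit to all arrays called 0 of 677 probes. With time and subplot as fixed terms 5 passed.

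Among the genes named by the smallest p, LOC542458 (probe 2071) had log2 ratios of 1.14 and 0.43 in June subplots 1 and 2 and of 0.52 and 1.04 in August. All 4 arrays were above 0, with a mean of 0.78 ± 0.23 (SE, n = 4; limma adjusted p = 0.328). LOC542581 (probe 2816) had 0.66, 1.04, 0.45 and 0.60 in the same array order, with a mean of 0.69 (limma adjusted p = 0.328). For TCTP (probe 4678) the values were 0.82, 0.56, 1.44 and 0.14, with a mean of 0.74. Every array was again above 0, and the highest value was that of August subplot 1. LOC606450 (probe 3277) kept the narrowest range of these, from 0.47 to 0.83. LOC542726, LOC542598, LOC100037748, LOC542601, Sod4A and LOC542367 had means of 0.64, 0.60, 0.53, 0.50, 0.44 and 0.44, none past the test.

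On the negative side RPL27A (probe 6457) had -1.25 and -0.85 in June and -0.61 and 0.06 in August, with a mean of -0.66 ± 0.25 (SE, n = 4; limma adjusted p = 0.328). The ratio was negative on 3 arrays and near 0 in August subplot 2. The probe of MNB1b with the smallest p (11752) had -0.59, -0.29, -1.20 and -0.28. LOC542701 (probe 16844), with a mean of -0.55, was below 0 on 3 arrays and at 0.17 in August subplot 2. The same split, negative on 3 arrays and positive in August subplot 2, held for 1 named probe each of LOC542725 (1395), LOC541821 (10434), LOC541662 (10005), LOC542301 (2417) and LOC542420 (3657). Their means lay between -0.54 and -0.27, and probes 10005 and 3657 were only at 0.018 and 0.015 in August subplot 2. Medians over all measured probes did not follow the split for LOC542725 (-0.13, 0.03, 0.54 and 0) or LOC542301 (-0.61, 0.82, -0.61 and -0.17). Nor did those of LOC542420 (0.24, -0.27, -0.42 and -0.20) or LOC541662 (0.0015, -0.18, -0.79 and 0.07). LOC542316 and LOC542291 had means of -0.41 and -0.43 with 1 positive array each. The most extreme probe, 14843, has no symbol and had -3.18, -0.35, -2.00 and -1.88, all negative (mean -1.85 ± 0.35, SE, n = 4; limma adjusted p = 0.107).

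Genes with several probes can be read on each of them. For 18 genes at least 3 probes were measured on each array. TCTP had medians of 0.63, 0.52, 0.82 and 0.14 over its probes, and LOC606450 had 0.40, 0.45, 0.63 and 0.40. LOC542581, LOC100037748, LOC542598 and LOC542641 were also above 0 on 4 of 4 arrays, and MNB1b was below 0 on 4 of 4. The other genes changed sign between arrays. Probes of 1 gene share their RNA, so they are no replicates of the plots.

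**Figure D2:**
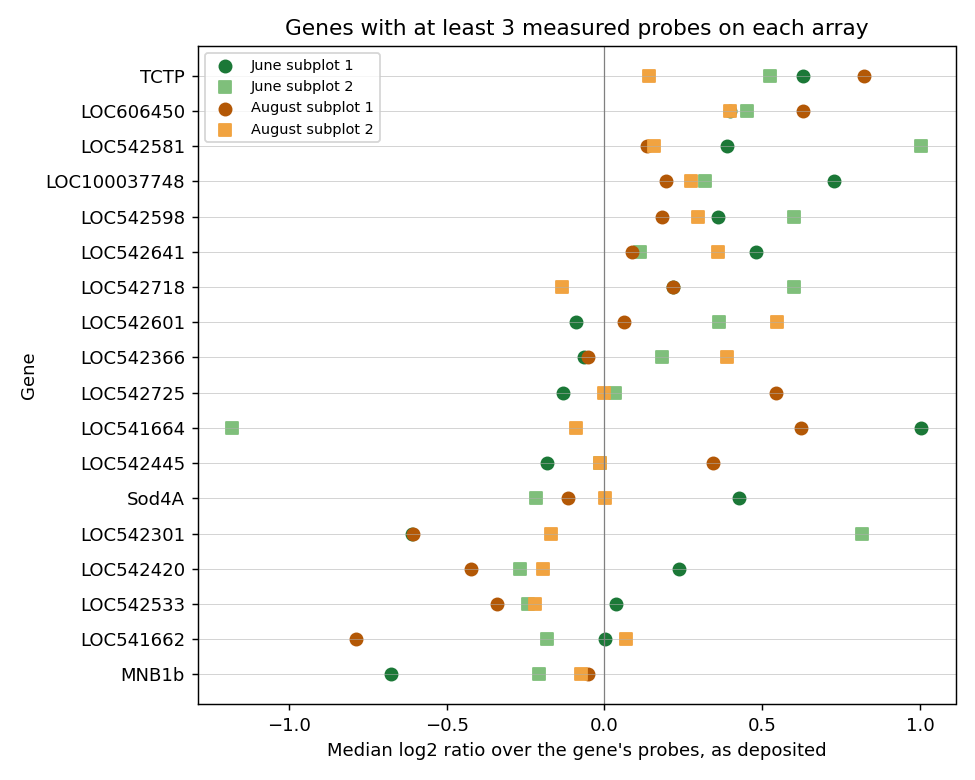
Median log2 ratio over the probes of each of the 18 genes with at least 3 measured probes on each array, with 1 point per array (circles subplot 1, squares subplot 2). TCTP, at 0.14 to 0.82, and 5 locus-numbered genes lie above 0 on every array, MNB1b lies below 0, and LOC541664 spans -1.18 to 1.002.

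The change from June to August was called for a single probe. Of 678 probes, 1 (0.147%) passed with limma adjusted p under 0.05, and 35 had an unadjusted p under 0.05. Probe 14696, which has no symbol, had -1.51 and 0.25 in June subplots 1 and 2 and 2.17 and 2.53 in August. Both August values lay above both June values, and the ratio rose by 2.98 ± 0.56 on the log2 scale (SE, n = 2 and 2 arrays; limma adjusted p = 0.0278). The call was lost with each array centred on its median and in each of 3 fits that left out an array (June subplot 1, August subplot 1 or August subplot 2), where 0 probes passed. Over the 2551 probes with at least 3 arrays 10 passed (0.392%), 8 higher and 2 lower in August, none with a symbol. Of these 10, 6 had a value on a single June array, including both of the lower ones, so that their June level has no replicate and is assumed to vary like the rest. The called probes had an error of 0.55 with 4 arrays and of 0.67 with 3, shared among probes.

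Other probes with small p did not pass. Probe 18873, without a symbol, had -1.66 and 0.06 in June and 2.61 and 1.34 in August (limma adjusted p = 0.0553). LOC542605 (probe 3964) had -1.51 and -0.10 in June and 1.32 and 0.96 in August, a difference of 1.95 ± 0.53 (SE; limma adjusted p = 0.287). LOC541791 (probe 5146) had -1.22 and 0.26, then 1.09 and 1.22. In these 3 the August values did not overlap the June values, and the June subplot 1 array was the lowest. LOC542366 (probe 3281) had -0.58 and -1.08 in June and 0.24 and 0.15 in August, a difference of 1.03. In the other direction LOC542581 (probe 9321) had 0.78 and 1.76 in June and 0.08 and -0.05 in August, a difference of -1.25. Its August values were close to 0 and both under the June values. For LOC100037748 (probe 100) the June values of 1.003 and 0.68 lay above the August values of 0.20 and -0.36. LOC542021, LOC542301, LOC542420, LOC732812 and LOC542291 had differences between -0.83 and -0.72, none past the test.

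Over all 678 probes, both August values lay above both June values for 162 and below them for 90, against the 0.147% that were called. Among the 76 MNB1b probes these counts were 41 and 1. The median of the August minus June difference over all probes tested was 0.13, and 0.024 after centring each array.

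**Figure D3:**
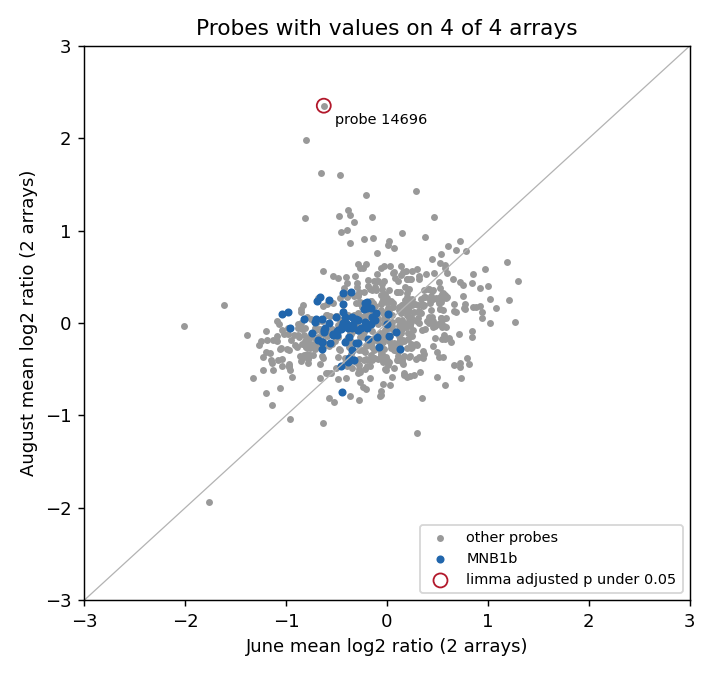
Mean log2 ratio of the 2 August arrays against that of the 2 June arrays for the 678 probes measured on all 4 arrays, with the line of equal values. Probe 14696 (ringed) is the only probe with an adjusted p under 0.05 for the change, and the MNB1b probes (blue) have August means near 0 and mostly negative June means.

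Subplots 1 and 2 differed for a single named gene. Of 678 probes, 1 (0.147%) passed, and 30 had an unadjusted p under 0.05. LOC542212 (probe 16448) had -1.05 in June and -1.34 in August in subplot 1, and 1.65 and 0.87 in subplot 2. The sign thus turned with the subplot in both months, with a difference of 2.46 ± 0.56 (SE, n = 2 and 2 arrays; limma adjusted p = 0.00936). In this fit limma gave every probe the same error, 0.56, because its estimate of the prior degrees of freedom was infinite, which leaves 1 shared variance. In each of the 4 fits that left out 1 array 0 probes passed. The median subplot difference over all probes was 0.22, and 0.0016 after centring. With at least 3 of 4 arrays 0 of 2551 passed (0%), and 158 had an unadjusted p under 0.05. A subplot contrast here is also a contrast of the plant codes 111c and 121c with the plant codes 112d and 122c.

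LOC541664 showed the opposite order. Probe 13085 had 1.90 in June and 0.49 in August in subplot 1 and -1.38 and -0.25 in subplot 2, a difference of -2.01 (limma adjusted p = 0.0847). Its other probes on 4 arrays, 8888 and 1313, differed by -1.41 and -1.30, and the gene's medians over probes were 1.002 and 0.62 in subplot 1 and -1.18 and -0.09 in subplot 2. Subplot 1 was thus above subplot 2 in both months, by more in June. LOC542301 had medians of -0.61 and -0.61 in subplot 1 against 0.82 and -0.17 in subplot 2. LOC541821 (probe 10434) differed by 1.74 (limma adjusted p = 0.282), with -1.68 and -1.14 in subplot 1 and -0.46 and 1.12 in subplot 2. Probe 11925, without a symbol, had -0.05 and -2.12 in subplot 1 and 1.20 and 0.78 in subplot 2 (limma adjusted p = 0.0828). LOC542320, LOC732812, LOC542733, LOC542291 and LOC542601 had positive differences of 1.09, 1.06, 1.04, 0.97 and 0.89, and LOC542316 had -0.91, none past the test.

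Set against the mean of the other 5 plot pairs (2 and 3, 4 and 5, 6 and 9, 7 and 10, 13 and 15), more probes stood apart. In a fit over all 34 arrays, 64 of 663 probes passed (9.65%), 10 above and 54 below, and 131 had an unadjusted p under 0.05. The split was 15 above and 42 below with each array centred on its median, and 2 above and 49 below with ratios turned to the lower-numbered plot and a dye term. The estimate is the ratio of plots 11 and 12 minus the mean ratio of the other pairs, with Cy5 and Cy3 as deposited. Which plot of another pair was in Cy5 is arbitrary here, so the estimate says how far these ratios lay from those of the other pairs and gives no level. The fit had a coefficient per pair, so its error came from arrays within pairs and not from the spread between pairs. Some arrays of the other pairs were from July, when plots 11 and 12 had none. No count is given here for any other pair set against the rest. The calls rested on particular arrays. Without the June subplot 1 array, or without the June subplot 2 array, 0 probes passed. Without August subplot 1 there were 11, and without August subplot 2 there were 95. Over 2451 probes required on 3 of the 4 arrays and on 1 array of each other pair, 0 passed and 273 had an unadjusted p under 0.05.

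Of the named genes, 4 passed above the other pairs, each on 1 probe. LOC542458 (probe 2071) was higher by 0.86 ± 0.25 (SE; limma adjusted p = 0.0341). TCTP (probe 4678) was higher by 0.85 ± 0.26 (SE; limma adjusted p = 0.0369), LOC542581 (probe 2816) by 0.65 ± 0.20 and LOC100037748 (probe 10170) by 0.63 ± 0.18. The first 3 were above 0 on all 4 arrays of the pair, and LOC100037748 was at -0.06 in August subplot 2. The other tested probes of these genes did not pass: 1 of 8 probes passed for LOC100037748, 1 of 5 for LOC542581 and 1 of 3 for TCTP. LOC542458 had a single tested probe, and its further probes lacked a value on at least 1 array of the pair. Probe 6847 of LOC100037748 was negative on all 4 arrays of the pair (-0.48, -0.24, -0.04 and -0.08). RPL27A (probe 6457) was lower by 0.69 ± 0.19 on the log2 scale, an estimate of -0.69 (SE; limma adjusted p = 0.0209). For this gene 1 of 2 tested probes passed, and the other, probe 10939, did not. LOC542726, LOC542725, LOC542701, LOC542316 and LOC542291 had estimates of 0.48, -0.53, -0.49, -0.59 and -0.54 and did not pass.

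The 54 probes below the other pairs followed 1 course. Apart from the RPL27A probe they have no symbol. They were chosen by these values, so what follows describes them and tests nothing. Their mean was -0.97 in June subplot 1, -0.90 in June subplot 2 and -0.74 in August subplot 1, with 54 of 54 probes below 0 on each of these arrays. In August subplot 2 the mean was 0.10, and 39 of 54 were above 0. The SD over probes was 0.19 to 0.26 on the 4 arrays. On the other 30 arrays the mean lay between -0.53 and 0.41, 15 of them below 0, and on none was it as low as on the 3 negative arrays of plots 11 and 12. Single estimates ran from -1.03 to -0.47 with a median of -0.65. The median correlation between these probes was 0.833 over 34 arrays and 0.688 over the 30 arrays of other pairs, against 0.0355 among the other tested probes. They are therefore not 54 separate observations. Their plot difference within the pair had an unadjusted p under 0.05 for 39 and a smallest limma adjusted p of 0.286.

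**Figure D4:**
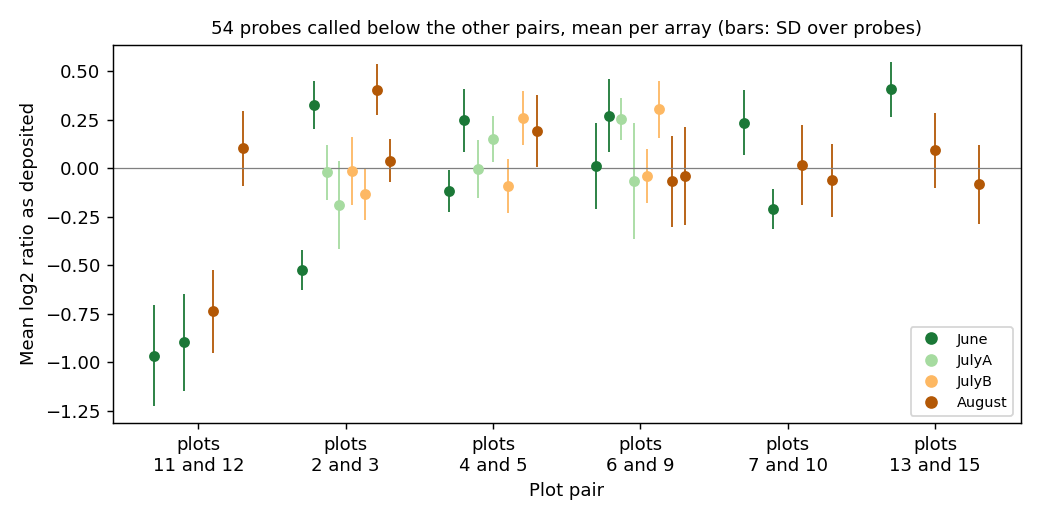
Mean log2 ratio over the 54 probes called below the other pairs, for each of the 34 arrays by plot pair and sampling time, with bars for the SD over probes. The first 3 arrays of plots 11 and 12 lie at -0.97, -0.90 and -0.74 and the August subplot 2 array at 0.10, while the other arrays lie between -0.53 and 0.41.

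The 10 probes above the other pairs had means of 0.75, 0.99, 0.49 and 0.59 on the 4 arrays. Their means lay between -0.61 and 0.49 on the 30 others, so the August subplot 1 array touched the upper end of that range. These 10 probes were also chosen by these values, August subplot 2 among them, so their positive means there test nothing. In the 54 probes August subplot 2 stood apart from the other 3 arrays.

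The chaperone probes of hsp70-4 and hsp70-5 stood on opposite sides of 0 in June subplot 1 and August subplot 2. Their mean log2 ratio was 1.20 over 14 probes in June subplot 1, 0.05 over 4 probes in June subplot 2, 0.19 over 18 probes in August subplot 1 and -0.39 over 20 probes in August subplot 2. In June subplot 1, 1 of 14 was below 0, and in August subplot 2, 18 of 20 were. The 2 genes had like means in June subplot 1, 1.20 for hsp70-4 and 1.21 for hsp70-5. Over the 4 arrays the group mean was 0.26 ± 0.67 (SD, n = 4), a spread wider than its distance from 0, and without June subplot 1 it was -0.05. The probe of hsp70-5 measured on all 4 arrays (8475) had 1.12, 0.32, -0.07 and -0.80, and that of hsp70-4 (5377) had 1.002, -0.27, -0.05 and -0.62. June exceeded August in the first, and in the second the June subplot 2 value lay between those of August. Of 15 hsp70 probes with at least 3 arrays, 13 were lower in August, with a median of -1.40 against -0.06 over all 2551 probes. None of the 15 passed for the change, 10 had an unadjusted p under 0.05 (against 188 of 2551, 7.37%, over all probes), and the smallest limma adjusted p was 0.228. The subplots differed about as much: 14 of the 15 were lower in subplot 2, with a median of -1.24 against 0.19 over all probes, and 0 passed. Of the 15, 13 had a value on only 1 June array, so month and subplot are not separated well in them.

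MNB1b is spotted many times, and most of its probes were negative in June subplot 1 and closer to 0 in August. The mean was -0.70 over 156 probes in June subplot 1 and -0.30 over 106 in June subplot 2. In August it was -0.05 over 211 probes in subplot 1 and -0.06 over 212 in subplot 2. In June subplot 1, 154 of 156 probes were below 0, and in June subplot 2, 76 of 106, with an SD over probes of 0.51. In August 122 of 211 and 129 of 212 were below 0. Single probes departed from this course: probe 11752 was lowest in August subplot 1, and probe 7446 had -1.08 and 0.24 in June. The mean of the 4 arrays was -0.28 ± 0.30 (SD, n = 4). Of 166 MNB1b probes with at least 3 arrays, 152 had a negative plot difference (median -0.27, against -0.02 over all 2551) and 151 were higher in August than in June (median 0.44, against -0.06). The other 15 were lower in August. Of the 166, 80 had a value on only 1 June array, so month and subplot are not separated well in them. None of the 166 passed any of the tests within the pair. For the change 9 of 166 had an unadjusted p under 0.05, against 188 of 2551 (7.37%) over all probes. The medians of the 76 probes on all 4 arrays were -0.60, -0.14, 0.02 and -0.08 as deposited and -0.34, -0.17, 0.10 and -0.15 with each array centred on the median of the 678 probes, so the values of both June arrays lay below both August values in either case, and after centring the June subplot 2 and August subplot 2 values nearly met. MNB1b made up 76 of the 678 probes tested.

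**Figure D5:**
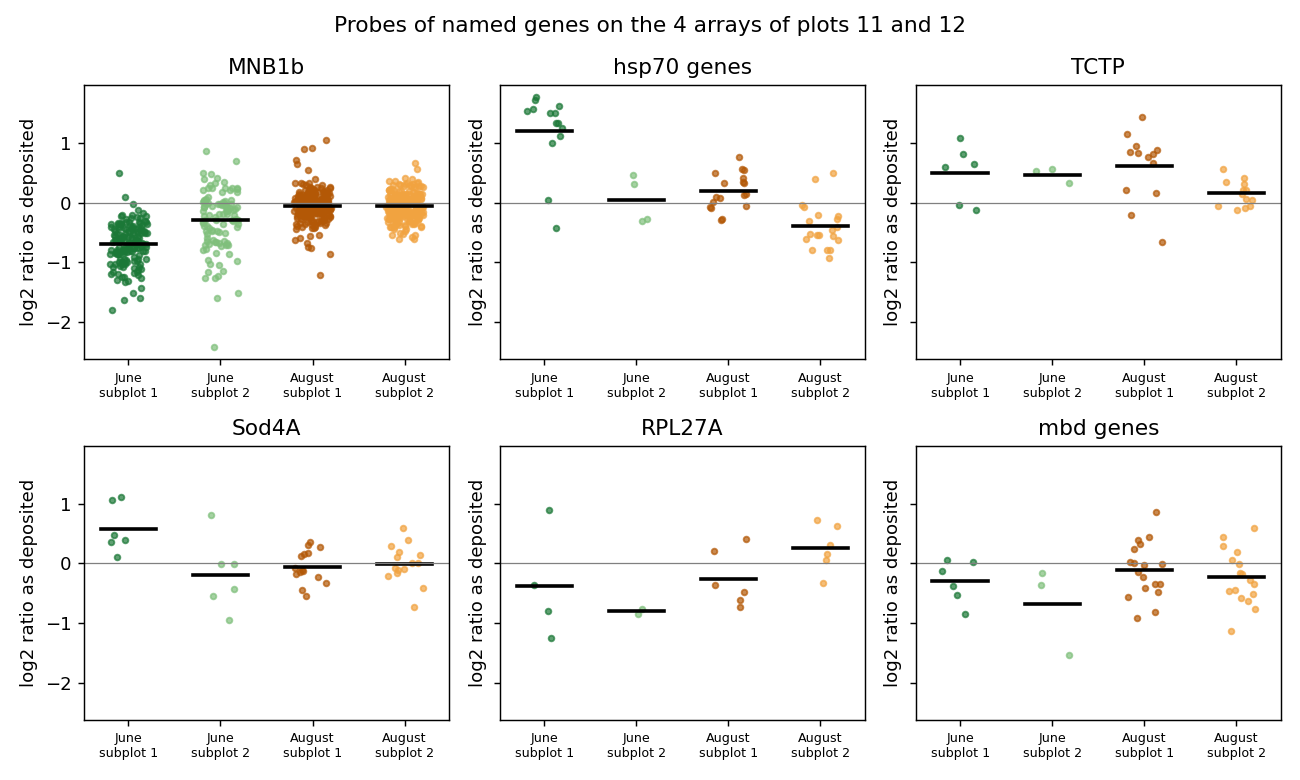
Log2 ratios of the probes of 6 gene groups on the 4 arrays, 1 point per probe, with a bar at the mean. MNB1b runs from a mean of -0.70 in June subplot 1 to -0.06 in August subplot 2, and hsp70 from 1.20 to -0.39. The mean of TCTP stays above 0 on each array, though some of its probes lie below 0.

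TCTP had group means of 0.50 and 0.47 in June and 0.61 and 0.15 in August, above 0 on 4 of 4 arrays, with a mean of 0.43 ± 0.19 (SD, n = 4). All 6 of its probes with at least 3 arrays had a positive plot difference, with a median of 0.45, and 0 passed. Sod4A had 0.58 in June subplot 1 and -0.19, -0.05 and 0.00 on the other arrays, with 0 of 6 probes below 0 in June subplot 1 and 5 of 6 in June subplot 2. RPL27A had -0.38, -0.80, -0.26 and 0.26, negative on the same 3 arrays as its called probe. Its probe 10939 had -0.79, -0.76, -0.48 and 0.16, close to the course of probe 6457, while probe 5078 was positive on each of its 3 arrays. The mbd genes had -0.30, -0.68, -0.11 and -0.23 over 6, 3, 18 and 17 probes. No mbd probe was measured on all 4 arrays, so these means come from different probes. Tubulin had -0.19 in June subplot 1 and 0.13 and -0.16 in August, with no measured probe in June subplot 2. Cab-m7, a chlorophyll a/b-binding protein of the light-harvesting antenna, had 1 probe (14820), at 0.09 in June subplot 2 and -1.58 and 0.07 in August. Of the oxophytodienoate reductase genes only opr7 was measured, with 1.51 and 0.37 in August. Tests within the pair could be run on 6 TCTP, 7 Sod4A, 4 RPL27A, 3 mbd and 2 tubulin probes with at least 3 arrays, and none of these passed. The opr7 probe was measured on 2 arrays and was not tested.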

How the data were processed

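The authors deposited 1 table of log10 ratios per probe and array; per the labels' protocols, total RNA was purified with RNeasy and labelled with Genisphere Array 900. The log10 scale was settled from the values: 82.3% to 97.2% of an array's values were log10 of a whole-number ratio with a denominator up to 1000 (tolerance 6e-10), and at most 0.0487% after a small shift. Scanner, background correction, normalization, filters and direction are not given in the labels or the file. Signal over background was not analysed here. The number of arrays limits the precision.

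Values were multiplied to log2. In R 4.3.3, limma 3.58.1 (lmFit, eBayes; Benjamini-Hochberg adjusted p under 0.05) was fitted to the 4 arrays over probes with 4 of 4 values, with the mean, the times or the subplots as coefficients. The fit against the other pairs used 34 arrays with a coefficient per pair, for probes on 4 of 4 arrays here and at least 2 arrays of each other pair. It left out 1 array with no values and 1 whose channels carried 1 and the same code. Fits treat the June and August arrays of the same plant codes as separate. If these are alike, p-values are too small for the mean, the subplots and the other pairs. For the change from June to August they are then too large. Scripts were tested on simulated data.

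Named were, among probes with exactly 1 symbol and 1 probe a gene, the 10 genes with the smallest p on each side of 0 in each fit within the pair and 5 a side against the other pairs, 2 probes a side without a symbol, and up to 4 probes of each gene list. Probes 7092, 14820, 10939, 5078, 8888, 1313 and 6847 and opr7 were chosen after their values were seen. Of 22 lists, 8 matched a symbol: hsp70, light harvesting, superoxide dismutase, opr, RPL27A, MNB1b with mbd, tubulin and TCTP. The members and lists were chosen with earlier results of these data known. Alternatives concerned the probes tested, centring, scaling, the variance model, dye terms, replicate blocks and leaving out arrays.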

Additional observations from a re-analysis of the deposited data

Results flagged for a closer look

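On 1 of 4 arrays a named probe stood far from the other 3 in 2 cases. LOC542320 (probe 15398) had -1.21 in June subplot 1 and between 0.75 and 1.02 on the other arrays, a gap of 0.88 of the range. An MNB1b probe (8021) had 0.018 in August subplot 1 and between -0.64 and -0.58 on the others, a gap of 0.902 of the range. These are 2 of 74 sets of 4 array values examined (63 named probes, gene group means and array measures), and chance alone marks about 1 in 20.

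Differences between months, subplots or plot pairs that passed limma's test were the following. Probe 14696 was higher in August by 2.98, and LOC542212 (probe 16448) was higher in subplot 2 by 2.46. Against the other pairs LOC542458 (probe 2071) stood at 0.86, TCTP (probe 4678) at 0.85, LOC542581 (probe 2816) at 0.65, LOC100037748 (probe 10170) at 0.63 and RPL27A (probe 6457) at -0.69.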

How the results depend on the processing

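Counts of calls were small and moved with most settings; the cause was not tested. For the plot difference 0 calls became 3 with probes on at least 3 of 4 arrays and 1 with arrays scaled to the same spread. There were 56 in the fit to all arrays as deposited with no dye term, and 0 with ratios turned and a dye term. When 1 array was left out there were 0 to 2. For the change to August 1 call became 10 with at least 3 of 4 arrays, 2 with scaling, 6 with the robust variance model, 4 without the MNB1b probes (added after seeing the data), 0 with centring and with both fits to all arrays, and 0 to 1 when 1 array was left out. For the subplots 1 call became 2 with centring or scaling, 3 with the robust model, and 0 with at least 3 of 4 arrays, with probes on all 34 arrays, with both fits to all arrays, without MNB1b and without any 1 array. Against the other pairs 64 calls became 0 with probes on 3 of 4 arrays and 1 array of each other pair, and 0 to 95 when 1 array was left out. The other settings gave 51 to 75.

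June and August arrays share plant codes, but the correlation of their deviations was -0.028, so the codes were not taken as pairs. With the replicate block, calls went from 0 to 5 for the plot difference (time and subplot as fixed terms; 0 with a random block), from 1 to 6 for the change to August and from 64 to 75 against the other pairs, and the subplot count stayed at 1.

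The difference in the number of values, -499.9, became 176.3 within August and ran from -1543.8 to 459.9 with 1 array left out. That in spread, -0.0114, became 0.0582 within June, 0.0212 as a standard deviation and 0.628 percentage points as the share beyond a doubling, and ran from -0.0903 to 0.0467 with 1 array left out. Of named probes, 12 estimates changed sign, none of them called. In the plot difference hsp70-5 (8475) became -0.015 and hsp70-4 (5377) -0.11 with scaling, and Sod4A (16057) 0.053 with the dye term. With 1 array left out, the plot difference ran from -0.18 to 0.46 for hsp70-5 (8475), from -0.31 to 0.23 for hsp70-4 (5377), from -0.0065 to 0.51 for Sod4A (7673) and from -0.24 to 0.10 for Sod4A (16057). Likewise the change to August ran from -0.067 to 2.19 for LOC541821 (10434) and from -0.061 to 1.15 for LOC542701 (1018). The subplot difference ran from -0.35 to 1.96 for LOC541791 (5146), from -0.96 to 0.077 for LOC100037748 (100) and from -0.78 to 0.043 for LOC542420 (2884). A further 38 estimates kept their direction and lost the call, 29 gained one, and 1046 kept both. Several settings, such as the robust model, change only the error and not the estimate, and most named probes had no call to lose. The 1046 are therefore no measure of stability.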
